A study of Mus musculus with 8 samples.

Results

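The Hedgehog pathway was followed in mouse embryonic stem (ES) cells through 9 genes, the ligands *Shh*, *Ihh* and *Dhh*, the receptors *Ptch1* and *Smo*, the transcription factors *Gli1*, *Gli2* and *Gli3*, and the ligand-binding inhibitor *Hhip*. They form a named pathway, chosen with earlier results of these data known, and the rule that finds their probes uses names and no values: every probe that is not a control and carries one of these names was taken, which gave 12 probes of 55681, and 9 names of 36406. E14Tg2A.4 ES cells, a single cell line, were left untreated or were treated with retinoic acid (RA) for 72 h, and the RNA of 4 biological replicates per condition was hybridized to Agilent 1-colour arrays. On such an array each spot carries a probe for a transcript, and the signal of the spot stands for how much of that transcript the RNA of a culture held. The study's methods state that RA was added in medium without leukemia inhibitory factor, a cytokine that holds ES cells in self-renewal, so RA and that medium cannot be told apart here. The arrays measure all cells of a culture together, so fewer cells of a type and less RNA per cell cannot be told apart either.

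Hedgehog proteins are secreted signals that pattern the neural tube, the limb and the gut. Without ligand, the receptor Ptch1 keeps the membrane protein Smo inactive, and Gli3 and in part Gli2 are trimmed into repressors of transcription. When a ligand binds Ptch1, Smo moves into the primary cilium and full-length Gli proteins switch on targets, among them *Gli1*, *Ptch1* and *Hhip*, of which Ptch1 and Hhip then dampen the signal. In the embryo Shh comes from the notochord and the floor plate of the neural tube, Ihh from visceral endoderm and later from gut and cartilage, and Dhh from Sertoli and Schwann cells. RA together with a Hedgehog agonist is a common way to turn ES cells into ventral spinal cord neurons in culture.

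After RA the ligands *Shh* and *Ihh*, the signal transducer *Smo* and the transcription factor *Gli3* were higher, while *Gli1* and *Ptch1*, the genes used most often as a readout of Hedgehog signalling, were lower. *Dhh*, *Gli2* and *Hhip* did not pass the test. A gene was called when its adjusted p from limma, with Benjamini-Hochberg adjustment over all probes, was under 0.05 and its change exceeded 1.5-fold. By this rule 6 of the 9 genes were called, against 36.1% of all genes on the array. Of the 6, 4 were higher and 2 lower, where 13.9% and 22.1% of all genes were. All members but *Shh* stood well above background on all 8 arrays. Of all genes that bright 45.6% were called, 18.1% higher and 27.5% lower. The 6 called genes were also those whose 4 untreated and 4 RA-treated arrays did not overlap, which held for 40.5% of all genes, with 15.3% above and 25.3% below the untreated arrays. With the median over the probes of a gene in place of the brighter probe, 4 of the 9 were called (*Ptch1* and *Smo* were not), a share no longer above that of genes that bright.

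Levels are given as log2 signal relative to the 75th percentile of the array, so that 0 is a bright spot and one unit is a doubling. They serve to compare arrays for one probe and not one probe with another. The median change over all probes was -0.28 on this scale and -0.0026 after quantile normalization, and 34.6% of all probes were called, 12.9% higher and 21.6% lower. Of the called probes 37.4% were higher (7196 higher and 12044 lower) on this scale against 48.4% (8152 and 8704) after quantile normalization. The 6 called members kept their direction and their call under both scalings. The log2 changes of the members that were not called were -0.68 (*Dhh*), -0.15 (*Gli2*) and 0.44 (*Hhip*) as measured, and -0.57, -0.13 and 0.45 after quantile normalization. Relative to the median of all probes they were -0.40, 0.13 and 0.72.

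**Figure D1:**
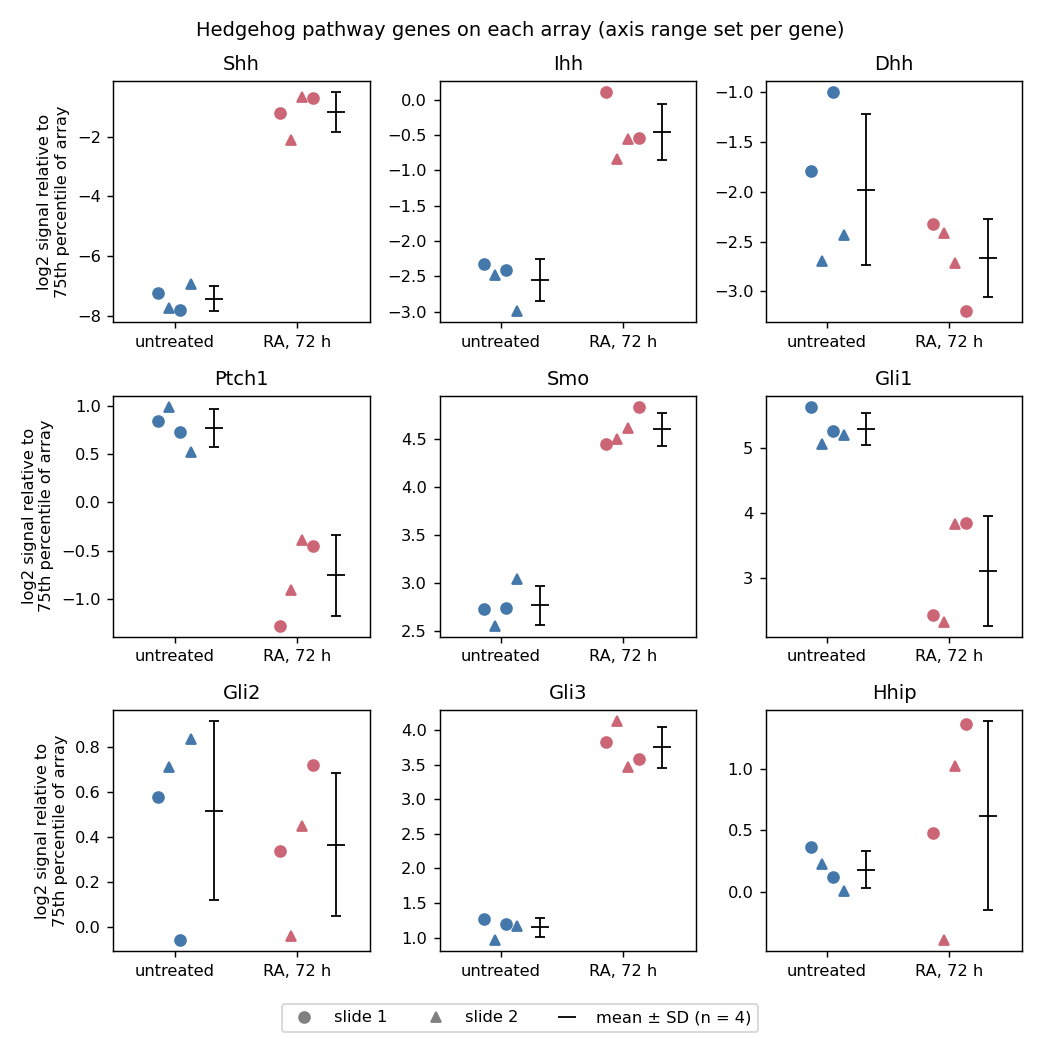
Log2 signal relative to the 75th percentile of the array (vertical axis, range set per gene) of the 9 Hedgehog pathway genes in untreated and RA-treated ES cells. Each point is an array, circles and triangles mark the slides, and bars give the mean and SD of 4 arrays. *Shh*, *Ihh*, *Smo* and *Gli3* lie higher on all RA arrays, *Ptch1* and *Gli1* lower, and the 2 conditions overlap for *Dhh*, *Gli2* and *Hhip*.

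The reading of each gene rests on its 60-base probes, which are given with their positions on mm9, the build of the scanner files. No annotation of that build was used, so the part of the gene that a probe falls in is not given. The 30 central bases are shown for the 6 called genes, because their changes carry the result, and for the dimmer probes of *Ptch1* and *Smo*, because these were not called although the brighter probe of their gene was. Capitals mark runs of repeated CA.
Shh (A_52_P49014): gaactgtactCACAgtgagggaaagattat
Ihh (A_55_P2152225): gggagaattttgggaatgttttggtctttc
Gli3 (A_51_P171288): agttacgcttgtatatcctgcagatgtgta
Gli1 (A_55_P2183587): ctatgtatgttccaggaaagaacaaacttt
Ptch1, brighter (A_55_P2107292): agaggagggactcaaaggtggaggtcatag
Ptch1, dimmer (A_52_P598605): atttgtaaaagaaaagatctttgctgatat
Smo, brighter (A_51_P258766): tcatagtgcccCACAttcaagaaccagaca
Smo, dimmer (A_55_P2121484): CACACACAgaCACACACACACAtacactct
On mm9 these stretches lie at chr5:28783998-28784027 (*Shh*, minus strand), chr1:74991921-74991950 (*Ihh*, minus), chr13:15821517-15821546 (*Gli3*, plus), chr10:126766982-126767011 (*Gli1*, minus), chr13:63612894-63612923 and chr13:63610313-63610342 (*Ptch1*, minus), and chr6:29711240-29711269 and chr6:29710934-29710963 (*Smo*, plus). The dimmer *Ptch1* probe is the member probe poorest in G and C, with 21.7% against a median of 43.3% over all probes, and 0.449% of probes are as poor. The dimmer *Smo* probe is largely a CA repeat. It holds 18 CA dinucleotides where the median probe holds 4, and 0.00718% of probes hold as many.

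*Shh*, the ligand of notochord and floor plate, was not well above background on any untreated array and was so on all 4 RA arrays. Its log2 signal was -7.22, -7.74, -7.81 and -6.94 in untreated cells and -1.22, -2.11, -0.67 and -0.71 after RA, for replicates 1 to 4. All 4 RA arrays stood far above all untreated arrays. Because the untreated signal was not well above background, the change is given as a bound. *Shh* was at least 22.1-fold higher after RA, with an adjusted p of 5.32e-06 by limma. The bound sets the mean of the RA arrays against the lowest signal that still counted as well above background on each untreated array, or the probe's own signal where that was higher. The size of the change depends on the processing. The log2 change was 2.70 with normexp background correction and 2.79 in the authors' table, whose background correction is not given. Both are smaller than the bound. The probe is printed in 10 copies per array, which were averaged.

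*Ihh*, the ligand of visceral endoderm, was measured in both conditions. Its log2 signal was -2.33, -2.48, -2.42 and -2.99 in untreated cells and 0.11, -0.83, -0.56 and -0.54 after RA. The conditions did not overlap, and replicate 1 was the highest of the RA arrays. *Ihh* rose 4.28-fold, a log2 change of 2.10 with an SE of 0.24 (adjusted p = 0.00017, limma, n = 4 per condition). The rise was of like size within each slide, at 2.16 and 2.04.

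*Dhh*, the ligand of Sertoli and Schwann cells, did not pass the test. Its log2 signal was -1.79, -2.70, -0.997 and -2.43 in untreated cells and -2.32, -2.42, -2.71 and -3.20 after RA. The conditions overlapped, and the spread lay mainly in the untreated arrays, of which the pair on the first slide was the brighter. The log2 change was -0.68 with a 95% interval from -1.53 to 0.16 (adjusted p = 0.186, limma). Without untreated replicate 3 the log2 change was -0.36. Within the slides the change was -1.37 and 6.6e-06.

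*Ptch1*, which encodes the receptor that holds Smo inactive and is itself a target of the pathway, fell. The brighter probe gave 0.84, 0.99, 0.73 and 0.52 in untreated cells and -1.28, -0.91, -0.39 and -0.45 after RA. No RA array reached the lowest untreated array, and RA replicates 1 and 2 were lower than 3 and 4. The level was 2.88-fold lower after RA, a log2 change of -1.53 with an SE of 0.22 (adjusted p = 0.000738, limma, n = 4 per condition). Within the slides it was -1.65 and -1.40.

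The dimmer *Ptch1* probe, whose AT-rich stretch is shown above, did not pass the test. It gave -1.06, -3.67, -1.68 and -3.83 in untreated cells and -2.71, -4.69, -4.35 and -1.41 after RA. These values followed the slide rather than the condition. All 4 arrays of the first slide lay between -2.71 and -1.06 and all 4 arrays of the second between -4.69 and -3.67, whatever the condition. Of all probes 1.46% were split by slide in this way, and of the 12 member probes this was the only one. The log2 change was -0.73 with an SE of 0.87 (adjusted p = 0.503, limma). With the slide as a block the SE was 0.30 and the adjusted p 0.0887, and within the slides the change was -0.69 and -0.77. The dimmer probe thus pointed down like the brighter one but was called in neither fit.

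*Smo*, the membrane protein that passes the signal into the cell, rose. The brighter probe gave 2.73, 2.55, 2.74 and 3.04 in untreated cells and 4.45, 4.50, 4.61 and 4.83 after RA. The 2 conditions were narrow and well apart. *Smo* rose 3.56-fold, a log2 change of 1.83 with an SE of 0.16 (adjusted p = 4.28e-05, limma, n = 4 per condition), and 1.91 and 1.75 within the slides. The dimmer probe, the CA repeat, gave -0.12, -1.48, -1.54 and -1.69 in untreated cells and -0.71, -0.87, -1.001 and -0.74 after RA. Untreated replicate 1 alone lay above all RA arrays and the other untreated arrays below them. Its log2 change was 0.38 with an SE of 0.33 (adjusted p = 0.362, limma).

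**Figure D2:**
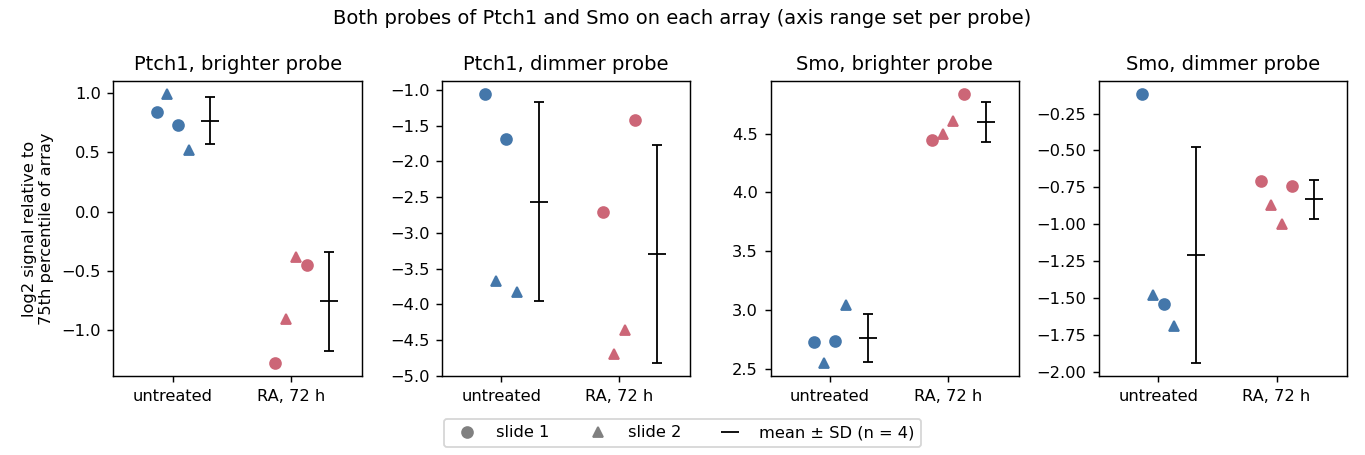
Log2 signal relative to the 75th percentile of the array (vertical axis, range set per probe) of both probes of *Ptch1* and *Smo*. Points are arrays, circles the first slide and triangles the second, and bars give the mean and SD of 4 arrays. The dimmer *Ptch1* probe separates the slides, with the first slide between -2.71 and -1.06 and the second between -4.69 and -3.67. On the dimmer *Smo* probe untreated replicate 1 stands apart at -0.12.

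The 3 *Gli* genes, which encode the zinc finger factors at the end of the pathway, moved apart. *Gli1*, an activator that is transcribed when the pathway is on, gave 5.65, 5.07, 5.26 and 5.21 in untreated cells and 2.42, 2.32, 3.83 and 3.84 after RA. All RA arrays lay below all untreated arrays and formed a lower pair, replicates 1 and 2, and a higher pair, replicates 3 and 4, one of each pair on each slide. *Gli1* was 4.58-fold lower after RA, a log2 change of -2.19 with an SE of 0.38 (adjusted p = 0.00194, limma, n = 4 per condition). Within the slides the change was -2.32 and -2.07.

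*Gli3*, which acts mainly as a repressor when no ligand is present, gave 1.27, 0.96, 1.19 and 1.16 in untreated cells and 3.84, 4.13, 3.47 and 3.58 after RA. The conditions were far apart and the replicates close together. *Gli3* rose 6.10-fold, a log2 change of 2.61 with an SE of 0.18 (adjusted p = 1.28e-05, limma, n = 4 per condition), at 2.48 and 2.74 within the slides. *Gli2*, the main activator in most tissues, gave 0.58, 0.71, -0.06 and 0.84 in untreated cells and 0.34, -0.04, 0.45 and 0.72 after RA. Here the conditions overlapped fully. The log2 change of *Gli2* was -0.15 with a 95% interval from -0.70 to 0.40 (adjusted p = 0.624, limma), which leaves out a 2-fold change in either direction.

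Whether these changes differ between the *Gli* genes was tested on the difference of their log2 signals on each array. This compares changes and not levels. The change of *Gli1* was 2.04 lower than that of *Gli2* on the log2 scale, with an SE of 0.39. It differed from that of *Gli3* by -4.80 with an SE of 0.57, and the change of *Gli2* differed from that of *Gli3* by -2.76 with an SE of 0.37. For each of the 3 pairs the arrays of the 2 conditions did not overlap, and the exact two-sided permutation p was 0.0286, also after adjustment over the 3 pairs, which is the smallest that 4 arrays against 4 can give. For *Gli1* and *Gli3*, which moved in opposite directions without overlap, this result was fixed in advance and adds nothing to their calls. With the replicate number as pairing, each difference had the same sign in 4 of 4 pairs, and the exact sign-flip permutation p was 0.125, the smallest that 4 pairs can give, so the paired test cannot reach 0.05.

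*Hhip*, which encodes a membrane protein that binds and holds back the ligands and is a target of the pathway, did not pass the test. The brighter probe gave 0.37, 0.23, 0.12 and 0.01 in untreated cells and 0.48, -0.39, 1.03 and 1.37 after RA. The untreated arrays were close together and the RA arrays wide apart, with SDs of 0.15 and 0.77. RA replicate 2 lay below all untreated arrays and the other RA arrays above them. The log2 change was 0.44 with a 95% interval from -0.35 to 1.22 (adjusted p = 0.313, limma). Without RA replicate 2 it was 0.78 with an adjusted p of 0.0349, which would be a call, while without RA replicate 4 it was 0.19. Over all alternatives but the first the adjusted p lay between 0.208 and 0.651. The dimmer probe gave a log2 change of 0.45 with an SE of 0.40 (adjusted p = 0.369, limma).

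**Figure D3:**
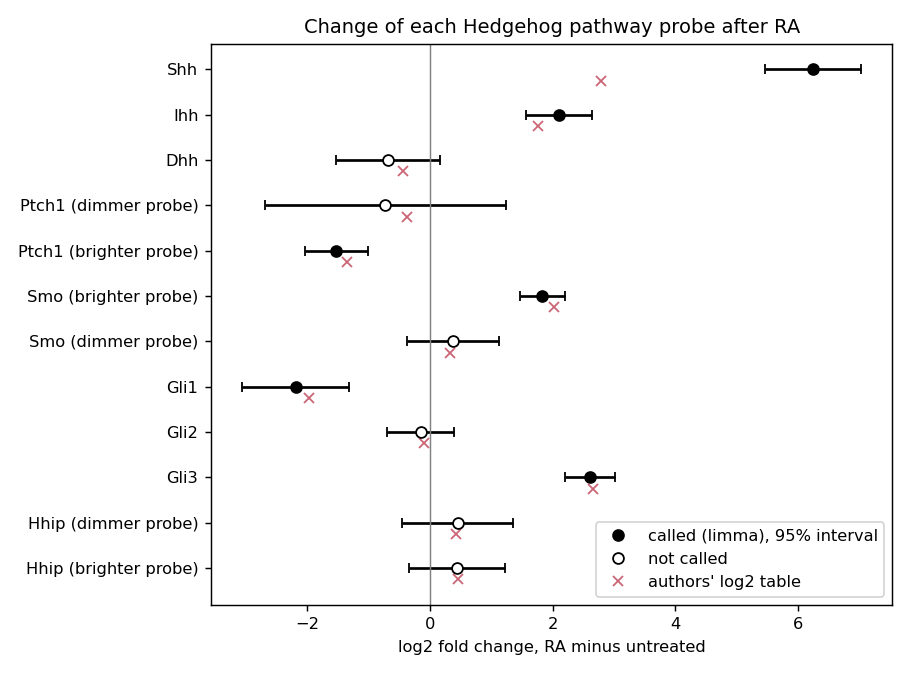
Log2 fold change, RA minus untreated (horizontal axis), of the 12 Hedgehog pathway probes with 95% intervals, filled where called by limma. Crosses give the change in the authors' own log2 table, which lay on the same side of 0 for all 12 probes. The cross for *Shh*, at 2.79, lies well below the fitted change, which rests on untreated signals not well above background.

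The RA arrays were not alike. Replicate 2 was the lowest of the 4 for 5 of the 9 genes and replicate 4 the highest for 4. Markers of other cell states also differed between the RA arrays, and not all in that order. The mean log2 level of 8 pluripotency markers, among them *Pou5f1* and *Nanog*, was 4.68 to 4.97 in untreated cells, and 0.15, 1.25, -0.15 and -0.78 on RA replicates 1 to 4. All 8 were called lower after RA and all 8 stayed well above background on every array, so pluripotency transcripts were still measured in the treated cultures. Their mean was highest on replicate 2, though *Klf4* was lowest there, at 0.50 against 0.52 to 0.89 on the other RA arrays. The mean level of 7 neural markers was -2.58 to -2.08 in untreated cells and -2.13, -1.94, -1.25 and -1.26 on RA replicates 1 to 4. This mean was lower on the same pair of RA arrays on which *Gli1* was lower, but its genes differed. *Neurog2*, at -7.83 and -7.39 against -4.05 and -4.41, was well above background on only 2 RA arrays, *Tubb3* ran the other way, at 0.64 and 0.42 against -0.54 and -0.34, and *Nes* lay between 3.05 and 3.26 on all 4. All 10 genes of a list of RA response genes were lower on that pair too, with a mean level of 1.94 and 1.88 on RA replicates 1 and 2 and of 3.73 and 3.19 on 3 and 4. The mean level of 8 mesenchyme and smooth muscle markers ran the other way, at 3.91 and 3.51 against 3.11 and 3.26, though *Pdgfra* among them was lower on replicates 1 and 2, at 0.37 and 0.01 against 0.58 and 0.91. The mean of 12 endoderm markers was also higher on replicates 1 and 2, at 0.23 and -0.24 against -0.41 and -0.61. Its genes differed too, and *Foxa2* was lower on replicates 1 and 2, at 4.04 and 3.87 against 4.75 and 4.61. The part of these genes in the members' levels was not tested.

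Cells that make Hedgehog ligands in the embryo were looked for by their markers. Of 7 markers of floor plate and notochord, 2 rose (*Foxa2* and *Nog*), 1 fell (*Foxj1*) and 4 were not called. *Noto*, which defines the notochord, was not well above background on any array. The median log2 change of the list was -0.18, and 0 with a dim gene set at its bound. Its mean level was -4.11 to -3.76 in untreated cells and -3.36 to -3.10 after RA. Without *Foxa2*, which is also an endoderm marker, it was -4.62 to -4.24 and -4.69 to -4.26. The endoderm list below keeps *Foxa2* and was not averaged without it, so the 2 lists were not treated alike. Of 12 markers of visceral and primitive endoderm, where *Ihh* is made, 9 rose and none fell, and the mean level went from between -3.30 and -2.76 to between -0.61 and 0.23. *Ttr*, a defining gene of visceral endoderm, was at least 43.1-fold higher, while *Apoa1* was not well above background on any array. All 8 markers of mesenchyme and smooth muscle rose, from a mean level of between -2.43 and -1.74 to between 3.11 and 3.91. Of 7 neural markers 2 rose and 1 fell. Of 6 mesoderm markers 1 was called higher and 2 lower. Of those called lower, *Mixl1* was not well above background on any array, and *Mesp1* was so on no RA array. The shares called were 42.9% of the floor plate and of the neural markers and 50% of the mesoderm markers, against 36.1% of all genes. Of all genes 13.9% were higher and 22.1% lower. The part of these cell types in the members' changes was not tested. All 10 RA response genes rose from untreated to RA-treated cells, among them *Rarb*, a receptor for RA, by 7.21 (SE 0.40) and *Cyp26a1*, which breaks RA down, by 6.09 (SE 0.53) on the log2 scale.

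The other genes of the pathway were taken from lists by role, with 65 genes in all. Of these 27 were higher after RA, 8 were lower and 30 were not called, so that 53.8% were called against 36.1% of all genes. Of the 65 genes 56 were well above background on all arrays, and of all genes that bright 45.6% were called. The median log2 change was 0.45, against -0.28 for all genes. A gene listed under more than one role was counted once in these totals.

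The 4 co-receptors named here, which bind ligand at the cell surface, rose. *Gas1*, a membrane-anchored protein that helps ligand bind Ptch1, gave -2.41, -3.04, -3.25 and -2.53 in untreated cells and 1.52, 0.15, 2.38 and 2.56 after RA. Every RA array was higher, with replicate 2 the lowest, and *Gas1* rose 22.0-fold (log2 change 4.46, SE 0.50, adjusted p = 0.00016). The size differed between its probes. Another that was well above background on all arrays gave a called log2 change of 0.78, and one that was so on the RA arrays alone a fitted 3.55. *Cdon*, a co-receptor of the immunoglobulin family, rose 7.40-fold (log2 change 2.89, SE 0.18). Its relative *Boc* and the large endocytic receptor *Lrp2*, named after their values were seen, rose by 1.23 and 1.03 on the log2 scale.

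Of the 8 genes of ligand release and processing, 5 rose, 1 fell and 2 were not called. That is 75% called, against 36.1% of all genes, of which 13.9% were higher and 22.1% lower. *Scube1*, of a family of secreted proteins that help ligand leave the cell, rose by 3.98 on the log2 scale (SE 0.41), although it was well above background on only 2 of the untreated arrays. *Gpc3*, a glypican that binds Hedgehog ligand and competes with Ptch1 for it, rose by 3.60 (SE 0.24). *Disp2*, a relative of the ligand exporter Disp1, was called lower but was well above background on 1 untreated array and no RA array, and its bound is at least 1.09-fold lower. *Hhat*, which attaches palmitate to the ligands and was named after its values were seen, had a called probe at 1.28 and another at -0.19 that was not called. *Scube3*, also named after its values were seen, had a called probe at 1.83 and another at 0.0091 that was not called.

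Of 19 genes of signal transduction 4 rose, 3 fell and 12 were not called, so that 36.8% were called, against 36.1% of all genes and 45.6% of genes that, like all 19, were well above background on all arrays, with a median log2 change of 0.0016. *Btrc*, a subunit of the ubiquitin ligase that marks Gli proteins for trimming, rose by 1.38 (SE 0.22) on its brighter probe, while another probe gave -0.19 and was not called. *Gsk3b*, a kinase that phosphorylates Gli proteins for that step, rose by 1.29 (SE 0.15). Its other probes gave 1.33 and 2.31, both called. *Evc*, a ciliary partner of Smo, fell by 1.31 (SE 0.19), and *Kif7*, a ciliary kinesin that controls Gli processing, fell by 0.83 (SE 0.14). *Sufu*, which holds Gli proteins in the cytoplasm, had a log2 change of -0.09 (SE 0.24) and was not called. Of 11 genes of transport in the primary cilium, 3 rose, 1 fell and 7 were not called, which is 36.4% called, with all 11 as bright. *Ift122* and *Ttc21b*, subunits of the complex that carries cargo back to the base of the cilium, rose by 1.53 (SE 0.18) and 1.52 (SE 0.21). *Bbs4*, of the BBSome that moves membrane proteins through the cilium, fell by 1.15 (SE 0.17).

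Of 16 target genes other than the members, 7 rose, 3 fell and 6 were not called, where of all genes 13.9% were higher and 22.1% lower. *Foxf2*, a forkhead factor of mesenchyme, was not well above background on any untreated array and was at least 12.4-fold higher after RA. *Foxa2*, a forkhead factor of floor plate and also of endoderm, gave 0.01, -0.91, -0.91 and -1.04 in untreated cells and 4.04, 3.87, 4.75 and 4.61 after RA. It rose by 5.03 on the log2 scale (SE 0.29) on arrays where the endoderm markers, a list that holds *Foxa2* itself, rose too. *Mycn*, a growth regulator, fell by 1.30 (SE 0.17). Of 7 genes that Shh holds down in the neural tube, 4 rose, none fell and 3 were not called. *Irx3*, a homeobox gene of the intermediate and dorsal neural tube, rose by 5.28 (SE 0.16), and *Dbx1*, a homeobox gene of interneuron progenitors, was at least 7.98-fold higher. The *Dbx1* signal after RA was -4.49, -4.29, -1.41 and -0.41, lower on the same pair of RA arrays as *Gli1*. The median log2 change of these 7 genes was 3.20, and 3.00 with *Dbx1* set at its bound.

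**Figure D4:**
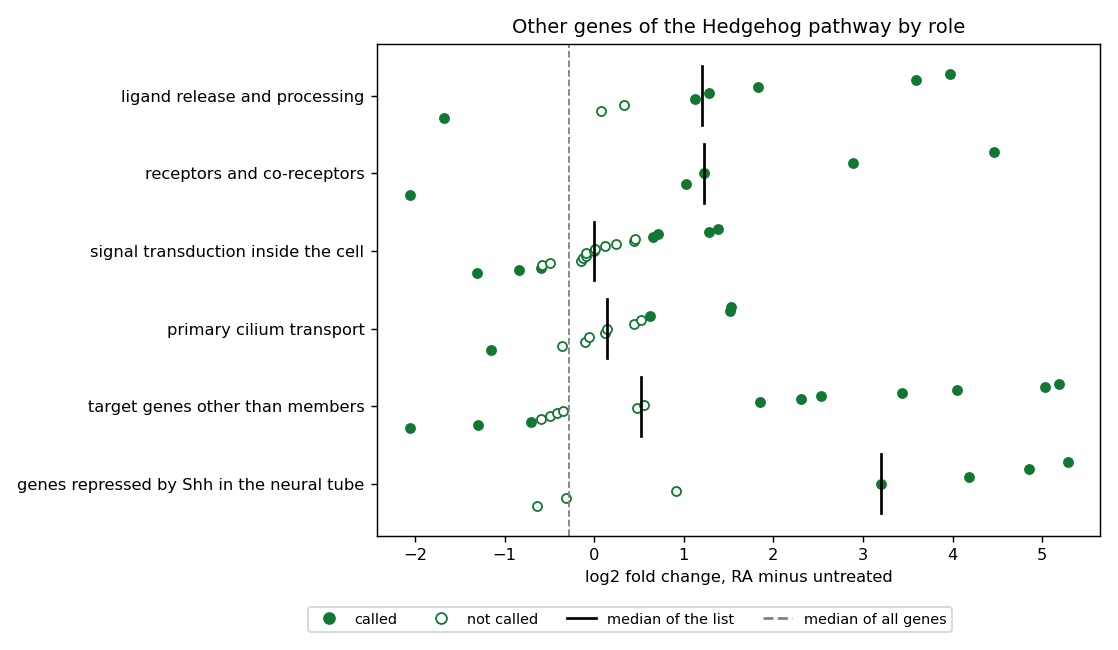
Log2 fold change, RA minus untreated (horizontal axis), of the other Hedgehog pathway genes by role. Each point is a gene, filled where called, black bars are the median of a list and the dashed line is the median of all genes, -0.28. The lists of signal transduction and cilium transport lie close to 0, with medians of 0.0016 and 0.14.

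The promoters of 7 of the 9 members were found in the RefSeq promoter table (GRCm38.p6), and those of *Shh* and *Gli1* were not in it. In the 250 bases upstream of the start, the observed over expected ratio of CG dinucleotides was 1.13 for *Gli3* and 1.08 for *Ptch1*, above 98.4% and 97.3% of 32851 promoters. It was 0.80 for *Hhip*, 0.78 for *Ihh*, 0.78 for *Gli2*, 0.54 for *Smo* and 0.43 for *Dhh*, against a median of 0.373. The promoters richest in CG thus belonged to a gene that rose and a gene that fell. The letters GACCACCCA, the motif that Gli proteins bind, were searched on both strands of 250 bases upstream and 50 downstream. They stood in 0 of the 7 member promoters and in 0.253% of all promoters.

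Genes with a pattern most like the called members that were measured on every array were sought by the root mean square difference of their log2 signals over the 8 arrays, each centred on its own mean, among 20387 genes, leaving out those named only by a position or transcript ID. Nearest to *Gli3* were *Errfi1*, at 0.156, and *Celf2*, at 0.164. Nearest to *Gli1* were *Rasgef1c*, at 0.305, and *Acacb*, at 0.308, so no named gene followed *Gli1* as closely as these followed *Gli3*. Nearest to *Ihh* were *Sc5d*, at 0.187, and *Dip2a*, at 0.207.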

How the data were processed

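RNA of 4 untreated and 4 RA-treated cultures (72 h) was measured on 8 arrays, 2 of each condition on each of 2 slides. The files that the authors deposited are Agilent Feature Extraction output (version 10.7.3.1). Their intensity values are background-corrected per spot but not normalized between arrays. Uncorrected spot and background intensities and, as other values, flags (0 or 1) that mark bright, saturated and outlier spots were deposited with them. A further deposited table holds log2 values whose median, 6.76, is the same on all 8 arrays. Its background correction and normalization are not given in the sources used here.

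Groups came from the sample titles, and no array was left out. From the log2 processed intensity of an array its own 75th percentile over 59305 non-control spots was subtracted. Outlier spots (124 to 145 per array) were dropped and the spots of a probe averaged. Between 56.7% and 62.7% of spots were well above background, and 0 were saturated. The number of arrays limits the precision. A probe counted as well above background on an array where at least 50% of its spots did. For a gene with several probes the brightest on average over the 8 arrays was used.

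RA-treated and untreated arrays were compared over all 55681 probes by limma (version 3.58.1, in R version 4.3.3), using lmFit and eBayes. The false discovery rate of 0.05 and the fold of 1.5 are the study's. Same-numbered replicates deviated together (correlations 0.186, 0.189, 0.104 and 0.151 over 27493 probes, from the labels' numbers), although the highest correlation between different numbers was 0.142, above that of replicate 3. The arrays of replicate 1 shared a slide, as did those of replicate 2, while those of replicates 3 and 4 did not. Number and slide are thus partly confounded in these correlations. All 4 exceeded 0.1, so the number was also fitted as a block. On simulated data for this comparison, with 200 of 55640 probes changed by a log2 value of 2, 156 were recovered, and 11 probes without a change were called too. The simulation changed a far smaller share of probes than the 34.6% called in the data. Its noise was independent between arrays, without slides or replicate numbers. These 2 counts therefore do not give the recovery or the false calls in the data. The alternatives tried were the normalization, the background correction, a filter on dim probes, the authors' table, slide and replicate blocks, a fold of 2, the median over the probes of a gene, and leaving out each array. The dimmer probes of *Ptch1*, *Smo* and *Hhip* and a paired test of the *Gli* differences were added as alternatives after seeing the data.

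The members and gene lists were chosen with earlier results of these data known. Named are all members, from each list up to 2 called genes with the largest rise and up to 2 with the largest fall, *Rarb* and *Cyp26a1*, and the nearest genes of the 3 called members with the largest changes among those measured in both conditions. *Sufu*, *Klf4*, *Pdgfra*, *Neurog2*, *Tubb3*, *Nes*, *Foxj1*, *Nog*, *Noto*, *Ttr*, *Apoa1*, *Mixl1* and *Mesp1* were named after their values were seen. Some genes that the rule names are not reported here.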

Additional observations from a re-analysis of the deposited data

Results flagged for a closer look

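The dimmer probe of *Smo*, the CA-repeat probe, read -0.12 on untreated replicate 1, while the other 3 untreated arrays lay between -1.69 and -1.48 (log2 signal relative to the 75th percentile). The gap to the nearest array was 0.865 of the range of the 4 arrays, above the limit of Dixon's test at the 95% level. Of 24 groups of 4 arrays tested over the member probes this was the only one to pass, where chance gives about 1.2. The brighter *Smo* probe read 2.73 on the same array, within the other untreated arrays.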

How the results depend on the processing

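The calls of *Shh*, *Ihh*, *Ptch1*, *Smo*, *Gli1* and *Gli3*, on their brighter probes, held with quantile normalization, normexp background correction, both together, the authors' table, a filter on dim probes, the slide block, the replicate block, a fold above 2 and without any single array. The replicate block, which pairs arrays of the same number, gave 6 called members, 33 genes of the wider list and 19384 probes, and changed no member's call. Called members numbered 6 in each of these settings except 7 without RA replicate 2 (*Hhip*), and 4 with the median over the probes of a gene. The dimmer probes of *Ptch1* (-0.73) and *Smo* (0.38) were not called. The size of the *Shh* change fell from 6.24 to 2.70 with normexp, a correction that lifts dim signals. The wider list gave 29 to 36 called genes. Leaving out 1 array at a time, the difference in change ranged from -2.26 to -1.83 for *Gli1* minus *Gli2*, -5.14 to -4.42 for *Gli1* minus *Gli3* and -2.97 to -2.50 for *Gli2* minus *Gli3*, each with the smallest permutation p that 3 arrays against 4 allow, 0.0571. With the replicate block, an exact sign-flip test over the 4 pairs added after seeing the data, the differences were again -2.04, -4.80 and -2.76, each with p = 0.125, the smallest possible. Within slides *Dhh* (-1.37 and 6.6e-06) and *Gli2* (0.27 and -0.57) moved and have no test. For a gene not well above background, as *Shh* in untreated cells, the arrays give only a bound.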
